A study of Mus musculus with 4 samples.

Results

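The 10 genes described here encode chains of the receptors through which natural killer T (NKT) cells sense innate cytokines: *Il12rb1* and *Il12rb2* (IL-12), *Il23r* (IL-23, with *Il12rb1*), *Il18r1* and *Il18rap* (IL-18), *Il17ra* and *Il17rb* (IL-25), *Il1r1* (IL-1), *Il1rl1* (IL-33) and *Il10ra* (IL-10). They were chosen by symbol, as a list of such receptors, and all 10 are among the 25239 genes of the count table. NKT cells are T cells whose receptor binds lipid antigens on CD1d, and 4 RNA-seq libraries of iNKT cells from the small intestinal lamina propria (SI-LP) of C57BL/6Jax mice were analysed. The sample titles mark replicates 3 and 4 as First and replicates 1 and 2 as Second, here called the first and second experiment. The titles do not say what these words stand for. All mice were wild type and, by the study's methods, received an anti-ARTC2 nanobody shortly before tissues were taken, and the cells were sorted as live TCRβ+ CD1d-tet-PBS-57+ cells without B220, CD11b, CD11c and CD8. The labels number the mice but do not say whether a library holds cells of 1 mouse or of several, so p-values measure the spread between these libraries only, and the methods give 1 age range and both sexes for all mice of the study and not for these. With 1 condition, the values describe levels and their spread between libraries.

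NKT cells are known to respond to cytokines of activated myeloid and epithelial cells even where the antigen signal is weak. IL-12 and IL-23 receptors signal through JAK2, TYK2 and STAT proteins, with IL-12 acting mainly through STAT4 towards IFN-γ, while the IL-1, IL-18 and IL-33 receptors carry a TIR domain and signal through MYD88 and IRAK kinases. The IL-25 receptor uses the adaptor ACT1, encoded by *Traf3ip2*, and is a known mark of NKT cells that make type 2 cytokines.

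The promoter sequences show how closely the measured genes lie to each other and where their windows differ. Of the 10 genes, 7 matched an entry of the RefSeq promoter table (GRCm38.p6), the genes with no entry being *Il12rb1*, *Il17ra* and *Il10ra*. The windows below are those of the most abundant gene of the list, of both IL-18 receptor genes and of *Il17rb*, the gene that varied most among those with at least 10 counts in all libraries. Each holds the bases just before the annotated start, 250 where no exon of another gene lies there, read 5′ to 3′ on the gene's strand (chr6:67376189-67376438, minus strand; chr1:40465415-40465551, plus; chr1:40515112-40515361, plus; chr14:30008897-30009146, minus), with matches to the motifs searched in capitals.
Il12rb2: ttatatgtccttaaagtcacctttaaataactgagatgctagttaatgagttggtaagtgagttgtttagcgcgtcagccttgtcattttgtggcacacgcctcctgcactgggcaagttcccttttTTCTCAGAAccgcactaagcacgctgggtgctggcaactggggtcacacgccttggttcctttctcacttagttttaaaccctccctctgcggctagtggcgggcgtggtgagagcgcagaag
Il18r1: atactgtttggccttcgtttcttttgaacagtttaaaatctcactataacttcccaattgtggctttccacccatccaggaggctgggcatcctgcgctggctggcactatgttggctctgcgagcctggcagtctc
Il18rap: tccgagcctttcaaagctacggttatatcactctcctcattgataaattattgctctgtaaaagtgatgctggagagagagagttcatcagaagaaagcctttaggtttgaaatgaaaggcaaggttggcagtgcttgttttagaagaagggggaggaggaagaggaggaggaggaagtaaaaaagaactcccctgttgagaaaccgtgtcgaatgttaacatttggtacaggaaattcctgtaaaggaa
Il17rb: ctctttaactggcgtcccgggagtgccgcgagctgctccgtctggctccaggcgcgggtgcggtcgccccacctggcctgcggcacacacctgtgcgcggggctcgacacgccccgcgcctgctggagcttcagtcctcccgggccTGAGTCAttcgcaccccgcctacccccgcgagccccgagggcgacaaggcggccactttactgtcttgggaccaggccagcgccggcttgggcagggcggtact
The motifs were a STAT site (TTCNNNGAA), an AP-1 site (TGANTCA), a T-box core (GGTGTGA), a RUNX site (TGTGGT), an NF-κB site and an NR4A site (AAGGTCA), each on both strands. The *Il12rb2* window held 1 STAT match, starting 123 bases before the start, a motif that 7.02% of 32851 windows of 250 bases hold. The *Il17rb* window held 1 AP-1 match at 104 bases, as 6.75% of windows do, and the windows of *Il18r1* (137 bases, shorter than the windows behind these shares) and *Il18rap* held none of the 6. The table lists further starts of *Il18r1*, and the 250 bases before 1 of them (chr1:40465756-40466005) held 2 STAT matches. T-box, RUNX, NF-κB and NR4A matches occur in 3.33%, 14.0%, 1.21% and 4.08% of windows and in none of the 4 printed. The windows before the annotated starts of *Il23r*, *Il1r1* and *Il1rl1*, not printed, held none of the 6 motifs. A further start of *Il1rl1* had 1 RUNX match. A match is a run of letters and was not tested as a binding site.

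The libraries held 3882803 to 8732858 counts on genes, so that 3 counts, taken as the lowest level that can be told from 0, stand for 0.287 to 0.753 CPM (counts scaled for library size with edgeR's TMM factors), a limit that covers counting error only. All 10 genes were among the 11689 that reached 10 counts in 2 or more libraries, 6 had at least 10 counts in all 4, and 4 (*Il23r*, *Il1r1*, *Il1rl1* and *Il10ra*) had 3 counts or fewer in 1 library or more. The T cell markers (*Cd3e* and 6 more, all with at least 10 counts in every library) summed to 991 to 3474 CPM and 7 NKT cell markers such as *Zbtb16* and *Il2rb* to 584 to 4280.0 CPM, whereas the NK and ILC1 genes *Ncr1*, *Eomes* and *Klra8* had 0 counts in all 4 (21.1 to 44.8 CPM for the list, all of it *Gzma*). Plasma cell markers (6 genes) summed to 6565 and 7014 CPM in replicates 1 and 2 against 139.5 and 377 CPM in replicates 3 and 4, and B cell markers to 61.1 and 52.4 against 1.12 and 0.753 CPM. Epithelial markers (13 genes) ran from 149 CPM in replicate 3 and 831 CPM in replicate 1 to 7349.5 CPM in replicate 2 and 26458 CPM in replicate 4, and replicates 2 and 4 were also the libraries with the lower T cell marker sums. In bulk libraries, fewer cells of a type and less RNA per cell cannot be told apart.

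*Il12rb2* was the most abundant of the 10 receptor genes in every library, and *Il17ra*, *Il12rb1*, *Il18rap*, *Il17rb* and *Il18r1* followed at a lower level. *Il1r1*, *Il10ra*, *Il23r* and *Il1rl1* were low. Levels of different genes are compared in TPM (counts per base of exon, scaled to the same sum in each library), which corrects for the summed exon length of each gene. Over the 4 libraries *Il12rb2* had 488 ± 277 TPM (SD, n = 4) and stood at percentile 97.0 of the genes tested, and it made up 62.0% to 74.1% of the summed TPM of the 10 genes. The median percentile of the 10 genes was 51.4, near the middle of the genes tested. Of the 9 steps between neighbours in the order by mean TPM, 2 were in the same direction in all libraries and larger than their SD. These were the step from *Il12rb2* to *Il17ra*, of 2.74 ± 0.32 log2 units, and that from *Il18r1* to *Il1r1*, of 2.70 ± 1.62 log2 units. The steps between neighbours within the middle group of 5 genes and within the low group of 4 genes were not beyond the spread between libraries. The 2 groups overlapped in replicate 4, where *Il1r1* had 9.38 TPM, above *Il12rb1* (8.65 TPM) and *Il17rb* (3.92 TPM).

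**Figure D1:**
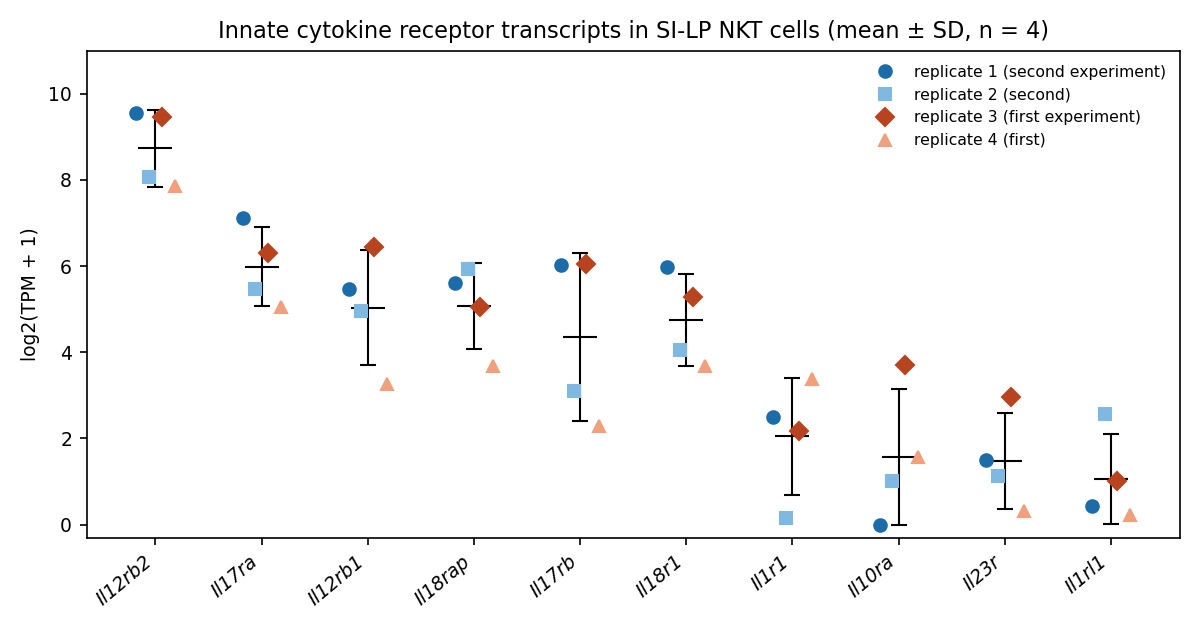
Levels of the 10 receptor genes as log2(TPM + 1) on the vertical axis, with 1 symbol for each of the 4 libraries and a black bar for the mean ± SD (n = 4); genes are ordered by mean TPM. *Il12rb2* lies above the other 9 genes in every library, and the 4 genes on the right reach down to or near 0.

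The IL-12 receptor needs both chains, *Il12rb2* (chromosome 6, 67292018 to 67376188, GRCm38), whose product binds STAT4, and *Il12rb1* (chromosome 8, 70808449 to 70821423), which is shared with the IL-23 receptor. *Il12rb2* had 747 and 268 TPM in replicates 1 and 2 and 709 and 229.7 TPM in replicates 3 and 4. *Il12rb1* had 43.5, 30.1, 86.4 and 8.65 TPM in replicates 1 to 4. In TPM both genes were thus lowest in replicate 4, but in CPM *Il12rb2* was lowest in replicate 2 (269, against 287 in replicate 4). The ranges of the first and second experiments overlapped for both genes. The TPM of *Il12rb2* was 17.2, 8.91, 8.20 and 26.5 times that of *Il12rb1* in replicates 1 to 4. The mean difference was 3.70 ± 0.76 on the log2(TPM + 1) scale (n = 4), with *Il12rb2* higher in 4 of 4 libraries (two-sided exact permutation test of the signs, p = 0.12, the smallest that 4 libraries allow, and 0.219 after Benjamini-Hochberg adjustment over the 7 chain pairs compared).

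*Il23r* (chromosome 6, 67422932 to 67491855), the chain that gives the IL-23 receptor its specificity and a mark of NKT17 cells, lies 46.7 kb from *Il12rb2* on the same strand, with no other gene of the table between them. It had 11, 10, 31 and 1 counts in replicates 1 to 4, which is 1.84, 1.18, 6.84 and 0.250 TPM. The adjacent *Il12rb2* had 229.7 to 747 TPM in the same libraries, so the most abundant gene of the list lies next to 1 of the 4 low genes. Against its partner *Il12rb1*, *Il23r* was lower in 4 of 4 libraries, with a difference of -3.56 ± 0.45 log2 units (exact permutation test, p = 0.12, adjusted 0.219). Of the cytokine genes known to be induced by IL-23, *Il17a* and *Il17f* had 0 counts in all 4 libraries and *Il22* had 33 and 34 counts in replicates 1 and 2 and 0 in replicates 3 and 4.

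**Figure D2:**
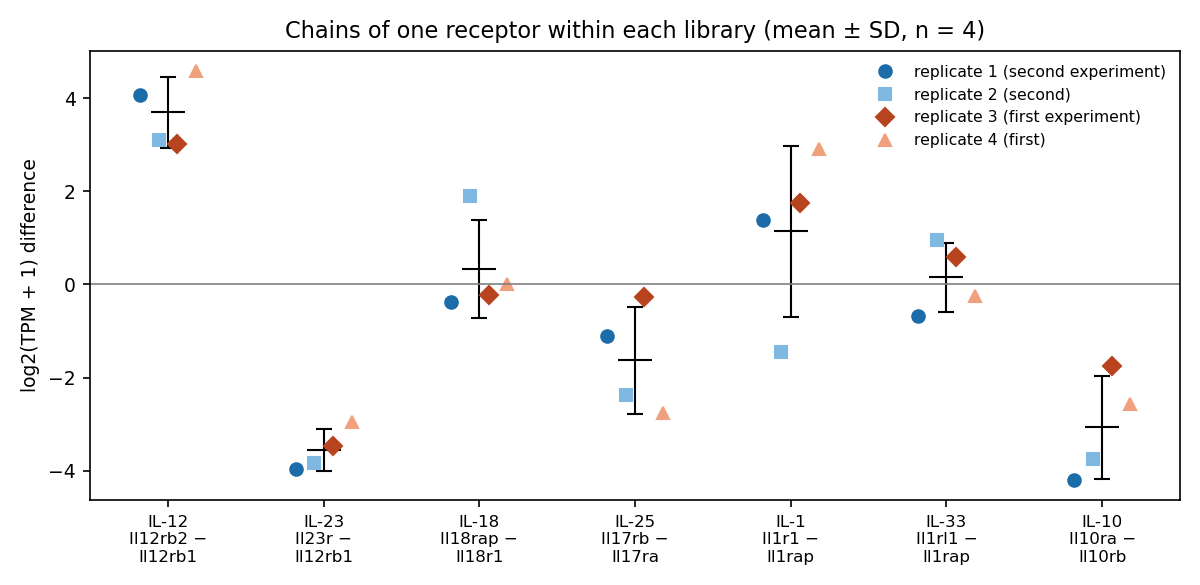
Difference between the chains of 1 receptor within each library, as log2(TPM + 1) of the first gene minus the second on the vertical axis, for 7 pairs, with 1 symbol a library and a black bar for the mean ± SD (n = 4). The IL-12 pair lies above 0 and the IL-23, IL-25 and IL-10 pairs lie below 0 in all 4 libraries, while the IL-18, IL-1 and IL-33 pairs lie on both sides.

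The IL-18 receptor is made of *Il18r1* (chromosome 1, 40465552 to 40500854), which binds the cytokine, and *Il18rap* (chromosome 1, 40515362 to 40551705), the accessory chain that is needed for signalling. *Il18r1* had 62.1, 15.5, 37.9 and 11.8 TPM in replicates 1 to 4, and was high in replicates 1 and 3. *Il18rap* had 47.8, 60.1, 32.3 and 11.9 TPM, and was highest in replicate 2. In 3 libraries the ratio of *Il18rap* to *Il18r1* was close to even, at 0.769, 0.853 and 1.01 in replicates 1, 3 and 4, and in replicate 2 it was 3.88. The mean difference of 0.33 ± 1.05 log2 units was within the spread between libraries (exact permutation test, p = 0.875, also after adjustment), and without replicate 2 it was -0.19. *Il18bp*, whose product is a soluble inhibitor of IL-18, had 19.2 ± 5.72 TPM and more than 10 counts in all libraries, whereas *Il18* itself had 0, 15, 0 and 22 counts in replicates 1 to 4, present in the libraries with more epithelial marker counts.

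The IL-25 receptor is a complex of *Il17ra* (chromosome 6, 120463197 to 120483727), which is also used by IL-17A and IL-17F, and *Il17rb* (chromosome 14, 29996168 to 30008896), the chain that binds IL-25. *Il17ra* had 139, 43.3, 78.1 and 32.4 TPM in replicates 1 to 4. *Il17rb* had 63.8 and 65.0 TPM in replicates 1 and 3 and 7.58 and 3.92 TPM in replicates 2 and 4. The 2 high libraries of *Il17rb* were thus from different experiments, and its highest CPM exceeded its lowest 16.7-fold, against 3.54-fold for *Il17ra*. *Il17rb* was lower than *Il17ra* in 4 of 4 libraries, with a difference of -1.63 ± 1.15 log2 units (exact permutation test, p = 0.12, adjusted 0.219), but the difference was -0.69 over replicates 1 and 3 alone, an alternative chosen after seeing the data. *Il13*, a type 2 cytokine gene, had 71 and 54 counts in the same replicates 1 and 3 and 1 count each in replicates 2 and 4, and *Il4* had 323 and 235 counts against 71 and 106. *Areg*, another type 2 gene of the same list, went another way, with 152, 443, 2 and 36 counts in replicates 1 to 4. *Il5* had 0 counts in all 4 libraries. *Il13*, *Il4*, *Areg* and *Il5* belong to a list of 12 genes induced downstream of the receptors, 10 of which were tested. In CPM, *Il13* had 9.84, 0.0958, 12.1 and 0.251 and *Il4* had 44.8, 6.80, 52.5 and 26.6 in replicates 1 to 4. The T cell markers split the same way, with sums of 2545 and 3474 CPM in replicates 1 and 3 against 991 and 1298 CPM in replicates 2 and 4. A tie of these cytokine genes to *Il17rb* was not tested. The tuft cell markers, which matter here because tuft cells make IL-25, summed to 0.670 to 18.6 CPM, and *Il25* had 0 counts in all libraries, which allows up to 0.753 CPM in the least deep.

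The receptors of IL-1 and IL-33 share the accessory chain *Il1rap*, and their own chains, *Il1r1* (chromosome 1, 40225080 to 40316177) and *Il1rl1*, which encodes ST2 (chromosome 1, 40429570 to 40465414), were near the limit of detection in part of the libraries. *Il1r1* had 56, 2, 32 and 76 counts in replicates 1 to 4, or 4.63, 0.117, 3.49 and 9.38 TPM. *Il1rl1* had 6, 118, 13 and 2 counts, or 0.352, 4.90, 1.01 and 0.175 TPM. The 2 genes were highest in different libraries, *Il1r1* in replicate 4 and *Il1rl1* in replicate 2, where *Il1r1* was lowest. *Il1rap* had 31, 77, 7 and 7 counts, and part of its exons overlaps *Gm20319* on the other strand, so its count is uncertain. The difference between *Il1r1* and *Il1rap* was 1.14 ± 1.84 log2 units, and that between *Il1rl1* and *Il1rap* 0.15 ± 0.75, both within the spread (exact permutation tests, p = 0.375 and 0.750, adjusted 0.525 and 0.875). The deposited exon length of *Il1rap* joins the exons of all its transcripts (11099 bases), as does that of *Il1rl1* (7096 bases), which lowers their TPM if a shorter transcript was expressed.

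Markers of other cells that are known to carry these receptors were examined beside these counts. Some single genes and some list sums were highest in the same library as *Il1r1* or *Il1rl1*, and others were not. *Kit* had 657 counts in replicate 2, the library with the most *Il1rl1*, against 6, 9 and 109 in replicates 1, 3 and 4. It made up most of the mast cell marker sum (1.39 to 62.9 CPM over 7 genes), while the defining mast cell genes *Mcpt1*, *Mcpt2*, *Fcer1a*, *Cma1* and *Tpsb2* were at 0 in all 4 libraries. *Foxp3*, the factor of regulatory T cells, had 4, 31, 2 and 0 counts in replicates 1 to 4, but the 4 regulatory T cell markers together summed to 839, 414, 664 and 271 CPM and did not follow *Il1rl1*. The stromal and endothelial markers (8 genes, *Vwf* at 0 throughout) summed to 139 and 189 CPM in replicates 1 and 4 and to 26.1 and 38.4 CPM in replicates 2 and 3, and *Il1r1* was highest in replicate 4. Of the ILC2 markers, *Il5* was at 0 and *Il9r* had at most 1 count in each library. *Areg*, *Klrg1* and *Hs3st1* were highest in replicate 2, at 42.4, 16.9 and 3.83 CPM, as *Il1rl1* was. *Klrg1* was close to this in replicate 1, at 15.1 CPM. *Gata3* and *Il13* were lowest in CPM in replicate 2, and *Rora* was highest in replicate 1. The sum over 8 genes was 414 to 1739.7 CPM and rested mainly on *Rora*, which T cells also express, as they do *Gata3*. The part of these cells in the counts of *Il1r1* and *Il1rl1* was not tested.

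*Il1r1*, *Il1rl1*, *Il18r1* and *Il18rap* lie on the same strand within 327 kb of chromosome 1, with *Il1rl2* between the first and the second. *Il1rl1* ends 137 bases before *Il18r1* starts, the window printed above, and 14.5 kb separate *Il18r1* from *Il18rap*. Their levels differed across this short distance, with mean TPM of 4.40 for *Il1r1*, 1.61 for *Il1rl1*, 31.8 for *Il18r1* and 38.0 for *Il18rap*. Counts were assigned without regard to strand, but the exons of none of the 10 genes overlap those of another gene in the table.

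**Figure D3:**
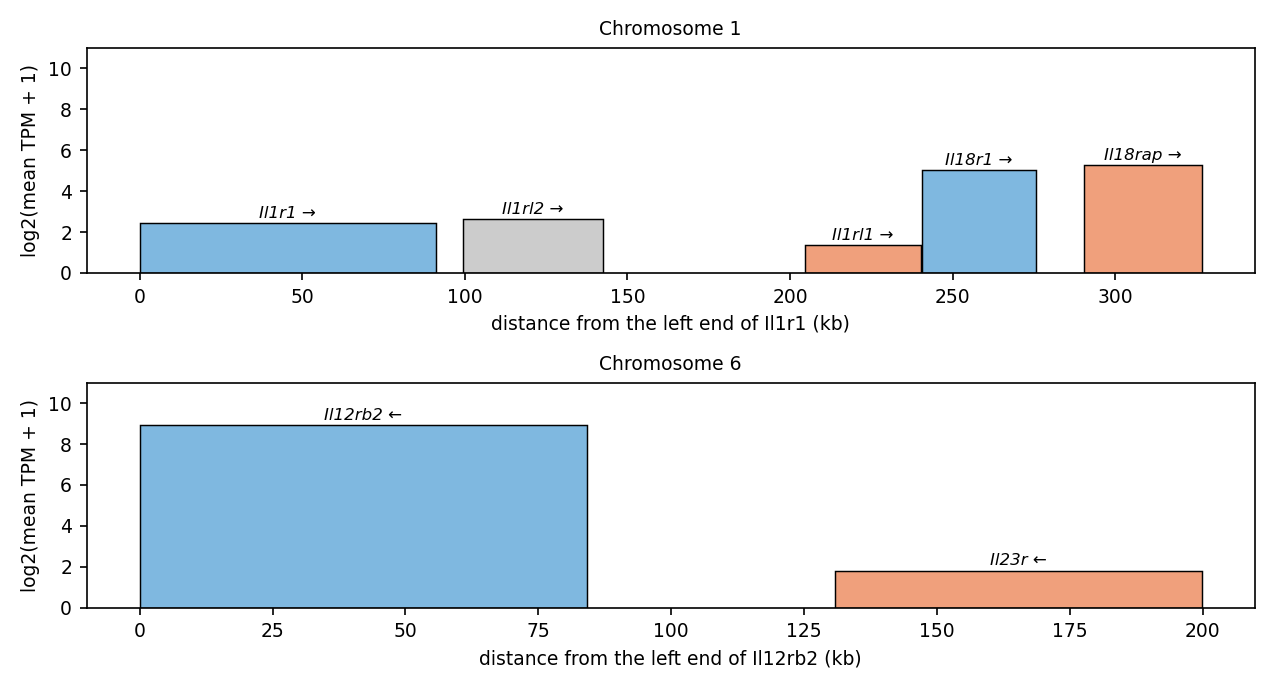
The receptor genes that neighbour each other on chromosome 1 (top) and chromosome 6 (bottom), drawn to scale as boxes from gene start to gene end in kb from the left end of the first gene, with the height as log2(mean TPM + 1) over 4 libraries and arrows for the strand. *Il18r1* and *Il18rap* stand above *Il1r1*, *Il1rl2* (grey, not one of the 10 genes) and *Il1rl1*, and *Il12rb2* above *Il23r*.

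*Il10ra* (chromosome 9, 45253837 to 45269149), the ligand-binding chain of the IL-10 receptor, had 0, 12, 77 and 11 counts in replicates 1 to 4. Its level was 12.1 TPM in replicate 3 and 1.01 and 1.95 TPM in replicates 2 and 4, and the 0 counts of replicate 1 allow up to 0.357 TPM. The broadly expressed partner chain *Il10rb* had 17.3, 26.3, 43.3 and 16.5 TPM and was the higher of the pair in 4 of 4 libraries, and *Il10ra* minus *Il10rb* was -3.07 ± 1.11 log2 units (exact permutation test, p = 0.12, adjusted 0.219). *Il10* had 132, 71, 0 and 34 counts in replicates 1 to 4, so the library with the most *Il10ra* was the one with no *Il10* count.

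The comparison between experiments asks how far the 2 sets of libraries, made from the same kind of cells, differ in the receptor genes. With edgeR (quasi-likelihood test, p-values adjusted by Benjamini-Hochberg over all genes tested), 0 of the 10 receptor genes had an adjusted p under 0.05 (0% of the 11689 genes did), and 0 had an unadjusted p under 0.05 (2.12% of all genes). DESeq2 called 0 of the 10 as well, against 0.351% of all genes, with 0 at an unadjusted p under 0.05 (4.44% of all genes). The fitted log2 fold changes of the second against the first experiment ran from -4.05 (SE 2.48) for *Il10ra* to 1.82 (SE 2.17) for *Il1rl1*, each with an adjusted p of 1.0 by edgeR. The SE here was derived from the test, as the size of the fold change divided by the square root of the F statistic. The CPM ranges of the experiments did not overlap for 2 of the 10 genes, *Il18rap* (77.7 and 95.5 CPM in the second, 64.3 and 23.6 in the first) and *Il10ra* (0 and 1.15 CPM in the second, 17.2 and 2.76 in the first), against 29.1% of all genes, so the share of receptor genes was not above the background. A difference that misses the threshold with 2 libraries a side is not shown to be absent.

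The libraries of 1 experiment also differed from each other. The SD of log2 CPM over the 4 libraries was 0.91 for *Il12rb2*, 0.89 for both *Il17ra* and *Il18rap*, 1.08 for *Il18r1*, 1.36 for *Il12rb1* and 2.03 for *Il17rb*, where the median over all genes tested was 1.02. *Il10ra* (2.42), *Il1r1* (2.29), *Il1rl1* (1.73) and *Il23r* (1.54), the genes with the lowest counts, were above this median too. With TMM scaling, *Il12rb2*, *Il18r1*, *Il17ra* and *Il17rb* were lower by over 1 log2 unit both in replicate 4 than 3 and in replicate 2 than 1. That is 4 of 10 genes, against 8.08% of all genes, and 0 of 10 were higher in both by over 1 log2 unit, against 19.0%. The T cell markers were lower in the same libraries, with median differences of -1.47 and -1.03, and 4 of these 7 markers met the same criterion. The epithelial markers were higher, with medians of 5.81 and 3.44.

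Scaling each library to the T cell markers instead moves the median of all genes from 0.08 to 1.74 (replicate 4 minus 3) and from 0.13 to 1.15 (replicate 2 minus 1). On that scale *Il12rb2* differed by 0.03 and -0.50 log2 units, *Il18r1* by -0.01 and -1.01 and *Il17ra* by 0.39 and -0.70. *Il17rb* was then the single receptor gene still lower by over 1 log2 unit in both, with -2.27 and -2.02 (0.915% of all genes met this criterion), and none was higher in both (44.3% of all genes). *Il18rap* went the other way from *Il18r1* in the second experiment, with 1.31 against -1.01 log2 units. With library size alone, 3 of the 10 were lower in both, without *Il17ra*. The part of the epithelial and other cells' RNA in these differences was not tested.

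**Figure D4:**
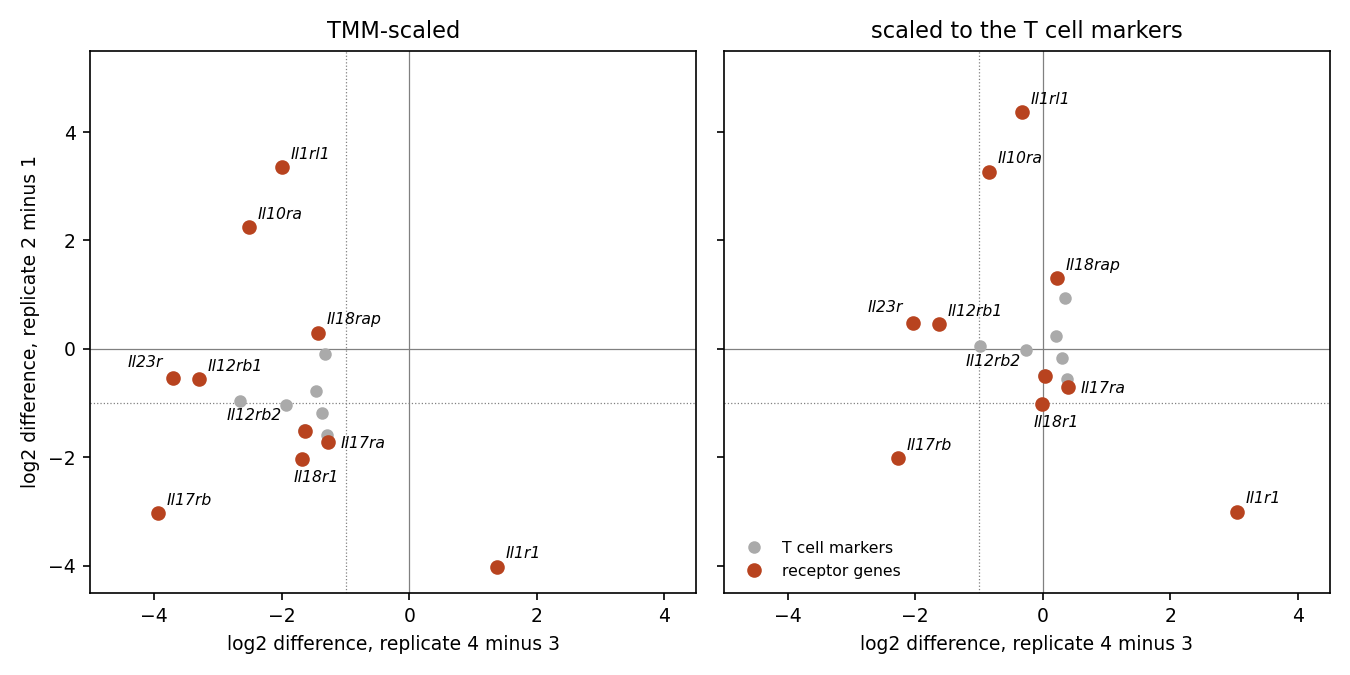
Log2 CPM difference of replicate 4 minus 3 (horizontal axis) against that of replicate 2 minus 1 (vertical axis) for the 10 receptor genes (red) and 7 T cell markers (grey), with TMM scaling on the left and scaling to the T cell markers on the right; dotted lines mark -1. *Il12rb2* lies within the range of the T cell markers on both axes in both panels, *Il18r1* and *Il17ra* lie below all 7 on the vertical axis, and *Il17rb* lies below -1 on both axes in both panels.

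The likeness of 2 genes was measured over the 4 libraries as the root mean square of the difference of their centred log2 CPM profiles, a value that changes little with the scaling of libraries, among the 8089 genes with at least 10 counts in all 4. *Il17ra* was rank 32 of 8088 in likeness to *Il18r1* (0.18 log2 units) and *Il12rb2* rank 111 (0.27), while the partner chain *Il18rap* was rank 3374 (0.94). *Il12rb1* was rank 2350 in likeness to *Il12rb2* (0.69), and *Il17rb* rank 4915 to *Il17ra* (1.06). In the other direction the ranks differ, and *Il12rb2* was rank 285 for *Il12rb1*, *Il17ra* rank 346 for *Il17rb*, and *Il18r1* rank 3747 for *Il18rap*. Chains of 1 receptor were thus less alike in profile than *Il12rb2*, *Il18r1* and *Il17ra* were among themselves. The nearest genes were *Mapkapk2*, *Msn* and *Rdx* for *Il12rb2* (0.04 to 0.06), *Ptpn22*, *Gbp7* and *Jak2* for *Il18r1* (0.07 to 0.11), and *Heca*, *H60b* and *A930006K02Rik* for *Il17ra* (0.02 to 0.03). For *Il18rap* they were *Ndufaf5*, *Zw10* and *Chst11* (0.05 to 0.06), and for *Il12rb1* *Tgfa*, *Tnfaip8l2* and *Ccdc88b* (0.14 to 0.16). *Il17rb* had no gene closer than *Cxcr4* at 0.47, followed by *H2-Q4* and *Dnaja4* at 0.51. With 4 libraries and 8089 genes, close profiles are many, and these ranks are a description.

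Transcripts of the adaptors and kinases listed for these receptors were present in every library, and most transcripts of the ligands were not. The bulk libraries also held counts of other cells' markers, so presence in a library does not place a transcript in NKT cells. All 18 adaptor and kinase genes had at least 10 counts in all 4 libraries, from *Tab3* (11.7 ± 3.34 TPM), which encodes a subunit of the TAK1 kinase complex, to *Jak1* (368 ± 159 TPM). For the IL-12 and IL-23 receptors, the kinase genes *Jak2* and *Tyk2* had 246 ± 175 and 27.4 ± 15.4 TPM. *Stat4* had 263 ± 209.8 TPM, with 539, 139, 306 and 66.8 TPM in replicates 1 to 4. It was lowest in replicate 4, as *Il12rb2* was in TPM but not in CPM. For the TIR-domain receptors, *Myd88* had 18.3 ± 6.31 TPM, *Irak2* 158 ± 55.0 TPM and *Irak3*, an inhibitory member of the family, 33.4 ± 30.0 TPM. For the IL-25 receptor, *Traf3ip2* had 69.5 ± 44.4 TPM and was highest in replicate 2, with 136 TPM. Of 16 ligands and soluble inhibitors, 8 had at most 3 counts in every library, and *Il12a*, *Il12b*, *Il23a*, *Il25*, *Il17a* and *Il17f* had 0. *Il1b* was the highest, with 35.3 ± 32.5 TPM and 259, 31, 40 and 83 counts in replicates 1 to 4, and the myeloid markers (8 genes) summed to 66.9, 77.4, 27.7 and 158 CPM in the same libraries. *Ifng*, the main product of IL-12 and IL-18 signals in NKT cells, had 205, 90.3, 219 and 156 TPM in replicates 1 to 4. None of the genes tested on these lists (18 adaptors and kinases, 5 ligands and inhibitors, 8 partner chains and decoys, 10 downstream genes) differed between experiments at an adjusted or unadjusted p under 0.05 by edgeR.

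**Figure D5:**
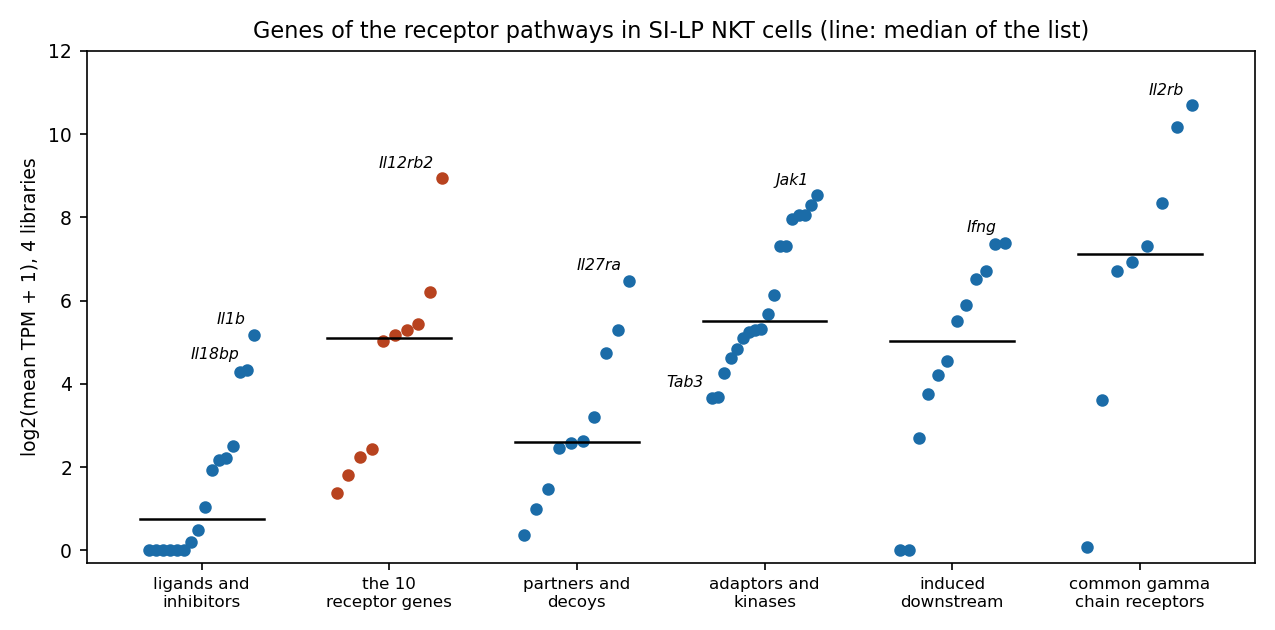
Mean level over the 4 libraries as log2(mean TPM + 1) for each gene (points) of the lists of ligands, receptors, partners, adaptors and kinases, downstream genes and common gamma chain receptors, with a line for the median of each list. All adaptors and kinases lie at or above *Tab3*, many ligands lie at 0, and *Il12rb2* stands above the other receptor genes of its list.

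The receptors of the common gamma chain family, given for comparison, had a median percentile of 85.5 over the 7 of 8 genes tested, against 51.4 for the 10 innate cytokine receptor genes. *Il2rb* and *Il2rg*, the signalling chains of the IL-2 and IL-15 receptors, had 1649 ± 1061 and 1145 ± 779.5 TPM, above *Il12rb2* in every library. The difference between the lists was not tested.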

How the data were processed

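Gene expression was measured by RNA-seq in 4 libraries of SI-LP NKT cells. The authors deposited raw counts per gene made with featureCounts 1.6.4, from exons of the RefSeq annotation of mm10 and with no strand option, per the file headers, together with the summed exon length of each gene in bases. The study's methods name HISAT2 and GRCm39, and the submitters' processing notes GRCm38.p6, RSEM and Bowtie2. The labels and the methods name different sequencers. Of the 6 library columns, 2 have no label among the samples and were not used.

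Counts were scaled with TMM factors (edgeR 4.0.16) to CPM, or divided by exon length to give TPM. Genes reaching 10 counts in 2 or more libraries entered the test, second against first experiment, with edgeR's quasi-likelihood test. DESeq2 1.42.0, other scalings, pseudocounts, no filter and leaving out each library were alternatives. The code was checked on simulated data. Within libraries, chains of a receptor were compared as log2(TPM + 1) by an exact permutation test of the signs. A level of 3 counts was taken as the floor.

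Promoter windows are from RefSeq (GRCm38.p6). The members and all gene lists were chosen with earlier results of these data known. Genes named are the 10 receptor genes, their partners, ligands, adaptors, downstream genes, common gamma chain receptors, cell type markers, *Rn45s*, and the 3 genes nearest in profile to each receptor gene with at least 10 counts in all libraries. 1 gene of the downstream list is not reported here.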

Additional observations from a re-analysis of the deposited data

Results flagged for a closer look

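In 17 sets of 4 library values, the highest or lowest library was compared with the others by Dixon's gap ratio, and 2 sets had a library apart. For independent, normally distributed values chance gives about 1 in 20, or 0.850 of 17. The CPM values were not logged and some sets share genes, so this rate is a rough guide only. *Il10ra* had 17.2 CPM in replicate 3, with a gap of 0.839 of the range to the next library. The log2(TPM + 1) difference between *Il18rap* and *Il18r1* was 1.89 in replicate 2, with a gap of 0.830 of the range, where *Il18rap* was higher and *Il18r1* lower than in replicate 1. Neither was tested further.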

How the results depend on the processing

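Mean TPM and CPM of the 10 genes moved by less than their SD under all alternatives run. Under the alternatives that kept all 4 libraries, 0 of the 10 genes had an adjusted p under 0.05 between experiments. Over all genes, the adjusted calls numbered 0 in edgeR, 41 in DESeq2 and 60 in edgeR with no filter. Leaving out a library leaves 1 in its experiment, which is then assumed to vary like the pair of the other. For those fits only fold changes are given. With *Rn45s* left out of the TPM, the mean of *Il12rb2* was 538 TPM, against 488 TPM. Without the filter on low counts the median percentile of the 10 genes was 76.7, since many more low genes are then ranked. Scaled to the T cell markers, 1 of the 10 genes was lower in both replicates 4 and 2, against 4. The difference of *Il18rap* and *Il18r1* ran from -0.19 to 0.56 when each library was left out and was -0.30 over replicates 1 and 3 alone. That of *Il1rl1* and *Il1rap* ran from -0.12 to 0.43, and was -0.31 in CPM and -0.05 over replicates 1 and 3 alone. The values over replicates 1 and 3 alone were added after seeing the data. With library size alone the log2 fold change between experiments was 0.09 for *Il12rb2* and 0.06 for *Il17rb*, on the other side of 0 from the TMM values. Leaving out each library, it ran from -1.53 to 1.78 for *Il12rb1*, from -1.09 to 0.84 for *Il12rb2*, from -0.96 to 1.41 for *Il18r1*, from -2.46 to 2.21 for *Il23r*, from -0.63 to 1.19 for *Il17ra* and from -2.46 to 2.88 for *Il17rb*, so the direction between experiments is not set for these genes. The causes were not tested. No paired analysis was possible because the study has 1 condition here and its libraries share no replicate number. *Il23r*, *Il1r1*, *Il1rl1* and *Il10ra* had 3 counts or fewer in some library, not always the least deep, and their values there carry a large counting error.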

Other observations

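Among the partner chains, *Il27ra*, the specific chain of the IL-27 receptor, had 88.1 ± 66.1 TPM (SD, n = 4), and *Il6st*, which encodes its signalling partner gp130, had 38.0 ± 13.2 TPM. *Sigirr*, an inhibitory receptor of the IL-1 family, had 8.15 ± 4.70 TPM. *Il1rl2*, the IL-36 receptor chain that lies between *Il1r1* and *Il1rl1*, had 103, 0, 52 and 21 counts in replicates 1 to 4. *Il17re*, the partner of *Il17ra* in the IL-17C receptor, had 7, 142, 17 and 1 counts and was highest in replicate 2.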
